A study of Homo sapiens with 6 samples.

Results

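The 9 genes described here encode the first steps of receptor-driven cell death and the proteins that hold it back: the receptors FAS, TNFRSF10A and TNFRSF10B, the initiator caspase CASP8 and its regulator CFLAR, the inhibitor of apoptosis (IAP) genes XIAP, BIRC2 and BIRC3, and the IAP antagonist DIABLO. They were taken by symbol from an mRNA table of 19912 rows. All 9 symbols were found, in 10 rows, because DIABLO has 2. RNA was measured in 3 libraries labelled shSRSF3, a short hairpin against the splicing factor SRSF3, and in 3 control libraries labelled ctrl. All 6 come from cells labelled Panc-1, a line of human pancreatic ductal carcinoma, with the phenotype gemcitabine resistance. Values are FPKM, fragment numbers corrected for gene length and library depth. The labels say neither whether the replicates are separate cultures nor how the hairpin was delivered or how many clones were used. The p-values therefore cover the spread between these 6 libraries alone, and that spread may be technical.

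Death ligands cluster receptors of this family at the cell surface. The receptors' death domains then gather the adaptor FADD and procaspase 8, which cleaves itself and passes the signal to the executioner caspases or to the mitochondria. CFLAR (c-FLIP) resembles caspase 8 but lacks its protease activity and controls its activation at the receptor. XIAP binds and inhibits caspases, BIRC2 and BIRC3 (cIAP1 and cIAP2) are ubiquitin ligases that steer receptor complexes towards survival signals, and DIABLO (Smac), once released from mitochondria, displaces IAPs from caspases. In pancreatic carcinoma lines these genes are studied because many of the lines resist death ligands.

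Library totals recovered from the steps of the FPKM values ran from 24558238 to 27351642 fragments, so 1 FPKM stands for 24.6 to 27.4 fragments per kilobase. SRSF3, the gene named by the hairpin label, averaged 37.5 ± 0.900 FPKM in shSRSF3 libraries and 38.6 ± 1.40 FPKM in controls (SD, n = 3 each; limma adjusted p = 0.612). The targeted transcript was thus not detectably lower, and shSRSF3 stands below for the label of a library. In bulk RNA, fewer cells of a kind and less RNA per cell cannot be told apart. Of the 5 epithelial and ductal markers, KRT8, KRT18, KRT19 and EPCAM were abundant, with a summed level of all 5 between 3659 and 4611 FPKM in shSRSF3 libraries and between 3488 and 3697 FPKM in controls. The ductal keratin KRT7 reached at most 0.241 FPKM, and vimentin (VIM), a mesenchymal filament that PANC-1 is known to express, at most 0.0389 FPKM, so these markers of the labelled line were near 0. Markers of leukocytes, endothelium, fibroblasts and of acinar and islet cells stood at no more than 2.80 FPKM each, and the highest of them was CD14. PTPRC, COL1A2, CELA3A, INS and GCG were listed at 0 in all 6. The 13 mitochondrial mRNAs made up 32.1%, 27.5% and 25.7% of the summed FPKM in shSRSF3 libraries 1 to 3 and 25.6% to 26.2% in controls. The part of this shift in the values below was not tested.

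Of the 9 genes, XIAP alone passed the threshold, and it was lower in the shSRSF3 libraries. All 9 had a mean above the filter of 0.5 FPKM in their main row and were tested. The test was limma on log2(FPKM + 1) with Benjamini-Hochberg adjustment over all tested genes, and a call is an adjusted p under 0.05. Of all 10823 tested genes 16.8% were called, 10.9% higher and 5.91% lower, so 1 call among 9 genes is a share near the background. Of those called, 64.8% were higher, against 50.3% after quantile normalization. The median log2 change was -0.02 over the 9 genes and 0.02 over all tested genes. Fold changes on this scale understate the change of low genes.

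**Figure D1:**
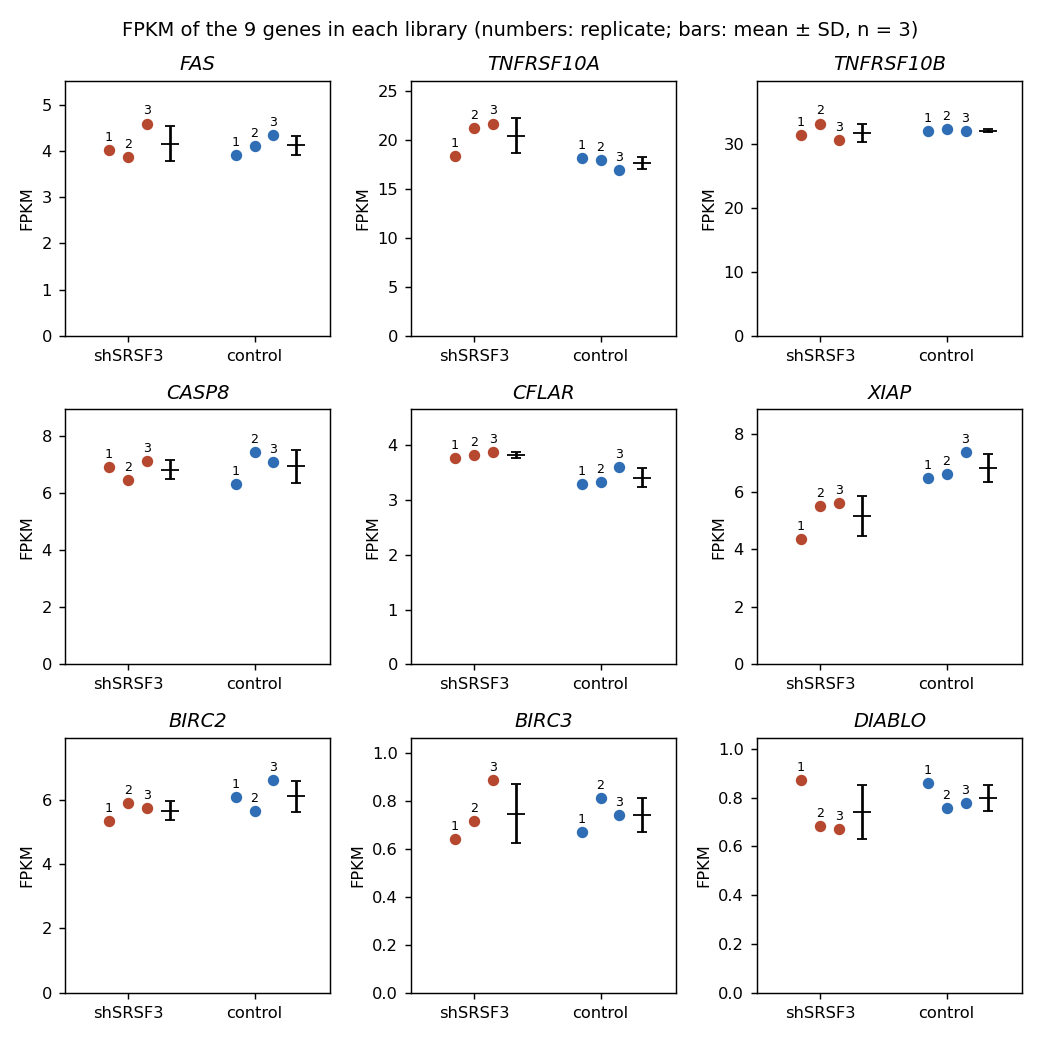
FPKM (vertical axis, from 0) of each of the 9 genes in the 3 shSRSF3 and the 3 control libraries, with the replicate number above each point and mean ± SD beside each group (n = 3). The groups do not overlap for XIAP, TNFRSF10A and CFLAR and overlap for the other 6 genes.

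The TRAIL receptors TNFRSF10B and TNFRSF10A had the highest FPKM of the 9 genes. TNFRSF10B (DR5), a receptor for the ligand TRAIL that is known to be induced by p53 and by the stress factor CHOP, had 31.3, 33.2 and 30.6 FPKM in shSRSF3 libraries 1 to 3, against 31.9, 32.3 and 31.96 FPKM in control libraries 1 to 3. The groups overlapped, and the control libraries lay closer together than the shSRSF3 libraries. The log2 change was -0.02 (SE 0.05, 95% interval -0.12 to 0.09, limma adjusted p = 0.833), from 4043 to 4509 fragments per library. TNFRSF10A (DR4), the other TRAIL receptor that carries a working death domain, had 18.4, 21.2 and 21.6 FPKM in shSRSF3 libraries, against 18.1, 17.9 and 16.9 FPKM in controls. All 3 shSRSF3 libraries were above all 3 controls, with shSRSF3 library 1 only just so. The limma log2 change was 0.20 (SE 0.07, 95% interval 0.05 to 0.34), with a limma adjusted p = 0.0621, which did not pass. Without shSRSF3 library 1, the library with the highest mitochondrial share, it was 0.27 (adjusted p = 0.00902), and without the low genes under a mean of 5 FPKM the adjusted p was 0.0408, while over the other 12 alternatives it ran from 0.0548 to 0.207.

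FAS (CD95), the receptor for FAS ligand, had 4.01, 3.87 and 4.59 FPKM in shSRSF3 libraries, against 3.92, 4.11 and 4.33 FPKM in controls. The groups overlapped across their whole range, and library 3 was the highest in both groups. Its log2 change was 0.0087 (SE 0.07, 95% interval -0.14 to 0.16, limma adjusted p = 0.945). FPKM put the receptors in the order TNFRSF10B, TNFRSF10A, FAS in every library, and these levels did not overlap between the genes. At the recovered gene lengths the libraries held 1312 to 1743 fragments of TNFRSF10A and 409 to 533 of FAS.

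The balance of the TRAIL receptors was compared within each library, where library scaling cancels. The ratio of TNFRSF10B to TNFRSF10A was 1.71, 1.56 and 1.41 in shSRSF3 libraries, against 1.76, 1.81 and 1.89 in controls. It was lower in all 3 shSRSF3 libraries (log2 difference -0.23), with an exact two-sided permutation p = 0.1, the smallest that 3 against 3 allows, and 0.2 after adjustment over the 4 ratios tested. The long noncoding antisense gene TNFRSF10A-AS1, read from the lncRNA table and chosen after its values were seen, stood at 5.85 ± 0.725 FPKM in shSRSF3 libraries and 5.29 ± 0.973 FPKM in controls (SD, n = 3 each; exact permutation p = 0.4). The labels do not state whether counting used strand, and without it reads of TNFRSF10A and of this partner cannot be told apart.

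CASP8, the initiator caspase of the receptor complex, had 6.91, 6.46 and 7.11 FPKM in shSRSF3 libraries, against 6.31, 7.44 and 7.08 FPKM in controls. Control library 1 was the lowest of all 6 and control library 2 the highest, so the groups overlapped. The log2 change was -0.02 (SE 0.07, 95% interval -0.17 to 0.13, limma adjusted p = 0.866). CFLAR had 3.77, 3.81 and 3.87 FPKM in shSRSF3 libraries, against 3.28, 3.33 and 3.60 FPKM in controls. All 3 shSRSF3 libraries lay above the controls and close together. The limma log2 change was 0.13 (SE 0.06, 95% interval 0.0019 to 0.26), with an unadjusted p = 0.0472 and a limma adjusted p = 0.146, which did not pass.

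The FPKM level of CFLAR is divided by a gene length of 22529 bases, recovered from the value steps, against 7243 bases for CASP8. CFLAR therefore had more fragments than CASP8 in every library (2139 to 2381 against 1165 to 1406 in shSRSF3 libraries, and 1816 to 2220 against 1122 to 1402 in controls) although its FPKM was lower. The ratio of CFLAR to CASP8 in FPKM was 0.545, 0.590 and 0.544 in shSRSF3 libraries, against 0.520, 0.448 and 0.509 in controls. The groups did not overlap (log2 difference 0.19), with an exact permutation p = 0.1, the smallest possible, and 0.2 adjusted over 4 ratios. Without control library 2, which had the lowest ratio, the log2 difference was 0.12. FPKM sums all isoforms, so the long and short forms of c-FLIP, which are known to act differently on caspase 8, are not separated. The partner CFLAR-AS1 was at or below 0.337 FPKM in every library.

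XIAP, the IAP that inhibits caspases directly, had 4.36, 5.51 and 5.60 FPKM in shSRSF3 libraries, against 6.49, 6.62 and 7.39 FPKM in controls. Every shSRSF3 library was below every control, and shSRSF3 library 1 was the lowest. The means were 5.16 ± 0.690 FPKM in shSRSF3 libraries and 6.83 ± 0.484 FPKM in controls (SD, n = 3 each), so the mean fell by 24.5%. Its log2 change was -0.35 (SE 0.08, 95% interval -0.54 to -0.16, limma adjusted p = 0.020), from 1009, 1239 and 1380 fragments in shSRSF3 libraries and 1438, 1528 and 1823 in controls. An exact permutation test on the FPKM values gave p = 0.1, the smallest possible. Without shSRSF3 library 1, the library with the highest mitochondrial share, the log2 change was -0.25 (adjusted p = 0.0294). Leaving out control library 2 ended the call (log2 -0.37, adjusted p = 0.0548), as did leaving out control library 3 (log2 -0.30, adjusted p = 0.0880) or using no filter on low values (adjusted p = 0.0798). XIAP-AS1 was at or below 0.25 FPKM in every library.

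The window around the first annotated start of XIAP is shown because XIAP is the gene that passed. It runs from 250 bases before to 50 bases after the start, at chrX:123859458-123859757 on the plus strand (RefSeq, GRCh38.p14). Capitals mark its GC box, GGGCGG, searched on both strands.
XIAP: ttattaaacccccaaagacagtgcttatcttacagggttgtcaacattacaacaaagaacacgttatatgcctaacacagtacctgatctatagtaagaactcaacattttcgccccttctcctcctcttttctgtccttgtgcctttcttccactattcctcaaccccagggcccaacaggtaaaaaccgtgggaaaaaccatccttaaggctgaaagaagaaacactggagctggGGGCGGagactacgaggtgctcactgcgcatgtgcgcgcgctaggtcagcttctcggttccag
GC boxes were found in 14 of the 20 windows of the members in the table and in 45% of all 35116 windows. XIAP has 3 annotated windows, of which 2 hold a GC box and 0 hold the NF-kB consensus. A match is a description of the letters only.

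**Figure D2:**
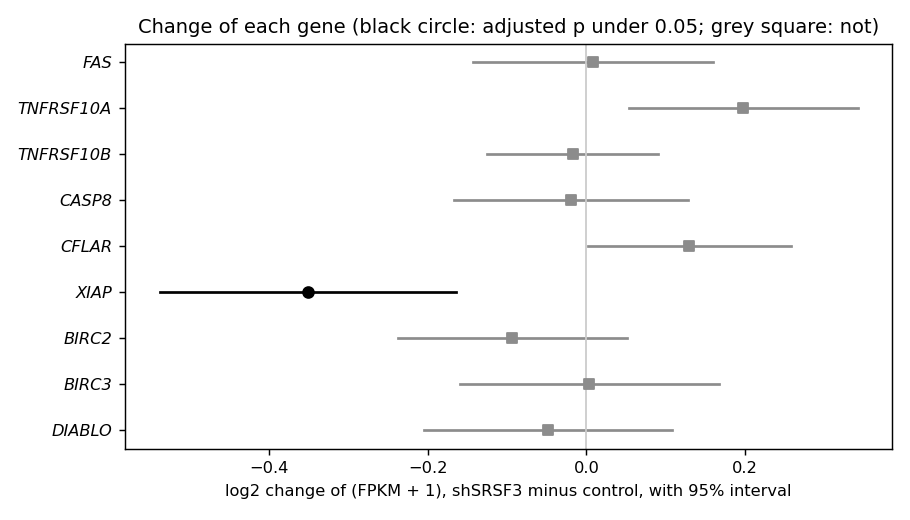
Log2 change of (FPKM + 1), shSRSF3 minus control, with its 95% interval for each of the 9 genes. The interval of XIAP lies below 0 and XIAP passed the threshold, while the intervals of TNFRSF10A and CFLAR lie above 0 without passing after adjustment.

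BIRC2, the more abundant of the cIAP genes, had 5.33, 5.89 and 5.74 FPKM in shSRSF3 libraries, against 6.08, 5.64 and 6.59 FPKM in controls. Control library 2 lay among the shSRSF3 libraries. The log2 change was -0.09 (SE 0.07, 95% interval -0.24 to 0.05, limma adjusted p = 0.347). Leaving out shSRSF3 library 1 gave -0.06, control library 3 gave -0.04 and control library 2 gave -0.14. BIRC3, which lies next to BIRC2 on the chromosome and is a known NF-kB target, had 0.644, 0.716 and 0.887 FPKM in shSRSF3 libraries, against 0.672, 0.812 and 0.744 FPKM in controls. The lowest and the highest values were both from shSRSF3 libraries. The limma log2 change was 0.0035 (SE 0.07, 95% interval -0.16 to 0.17, limma adjusted p = 0.980), from 124 to 182 fragments per library.

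BIRC2 and BIRC3 are close relatives in sequence, and the labels do not state how reads matching more than 1 gene were counted. The ratio of BIRC2 to BIRC3 was 8.28, 8.23 and 6.47 in shSRSF3 libraries, against 9.06, 6.94 and 8.86 in controls (exact permutation p = 0.5, also 0.5 adjusted over 4 ratios). The groups overlapped.

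DIABLO was low by FPKM, at a recovered gene length of 6774 bases in its main row. Here too the labels do not state how reads matching more than 1 gene were counted. The main row of DIABLO had 0.870, 0.682 and 0.671 FPKM in shSRSF3 libraries, against 0.860, 0.757 and 0.777 FPKM in controls. Library 1 was the highest of its group in both groups, and the groups overlapped. The log2 change was -0.05 (SE 0.07, 95% interval -0.20 to 0.11, limma adjusted p = 0.667), from 115 to 151 fragments per library, with voom on fragments giving -0.11. The other row held 0 to 2 fragments per library and was below the filter. The ratio of DIABLO to XIAP was 0.199, 0.124 and 0.120 in shSRSF3 libraries, against 0.133, 0.114 and 0.105 in controls. The groups overlapped (log2 difference 0.30, exact permutation p = 0.4, adjusted p = 0.5 over 4 ratios), and without shSRSF3 library 1 the difference was 0.06.

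Groups did not overlap for 3 of the 9 genes, 2 higher and 1 lower in shSRSF3 libraries. Among all 10823 tested genes the share was 37.9%, with 22.6% higher and 15.3% lower, so 3 of 9 is near the background. By FPKM over the 6 libraries the 9 genes ran from TNFRSF10B, above 87.1% of tested genes, to BIRC3, above 4.6%. Between these lay TNFRSF10A, CASP8, XIAP, BIRC2, FAS, CFLAR and DIABLO. Over the 6 libraries the levels of CASP8, XIAP and BIRC2 overlapped with each other, XIAP also overlapped with FAS, and DIABLO overlapped with BIRC3. The highest CFLAR value met the lowest FAS value at 3.87 FPKM.

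**Figure D3:**
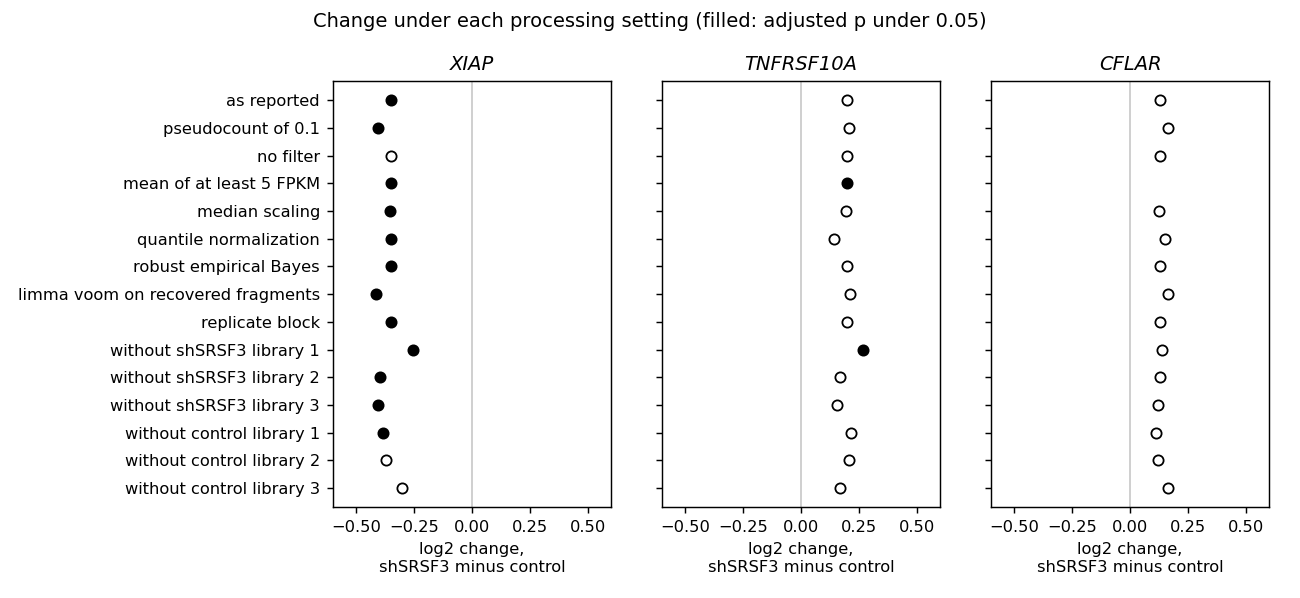
Log2 change, shSRSF3 minus control, of XIAP, TNFRSF10A and CFLAR (panels) under each processing setting (rows), with filled points where the adjusted p is under 0.05. XIAP stayed below 0 throughout, between -0.41 and -0.25, TNFRSF10A and CFLAR stayed above 0, and CFLAR has no point at a mean of at least 5 FPKM because it lies below that level.

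The pathway around these genes was described with 10 lists of 108 other genes. Of these, 85 were tested, and 16 were higher and 8 lower in shSRSF3 libraries (28.2% called). Of all tested genes 16.8% were called, 10.9% higher and 5.91% lower. The median log2 change was 0.035, against 0.02 over all tested genes. Each list holds few calls, so its counts below only describe it. Over the 10 lists together, the counts were 8 higher without shSRSF3 library 2 and 5 lower without control library 1. They were 6 higher and 3 lower without control library 2, and 7 higher and 3 lower without control library 3. No filter gave 9 higher and 5 lower, and quantile normalization gave 11 higher and 11 lower. The ligands of the receptors were hardly present. FAS ligand (FASLG) had 15 to 25 fragments per library, at 0.437 ± 0.075 FPKM in shSRSF3 libraries and 0.381 ± 0.061 FPKM in controls. TRAIL (TNFSF10) had 1 to 10 fragments per library, and TNF and LTA were listed at 0 in all 6. The only tested ligand gene of the list was TNFSF15, whose product binds the death receptor DR3. It fell to 1.74 ± 0.114 FPKM in shSRSF3 libraries, against 2.65 ± 0.190 FPKM in controls (log2 -0.41, SE 0.07, limma adjusted p = 0.00363).

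Of 9 other death and decoy receptors, 5 were tested, 1 rose and 0 fell (median log2 change 0.06). TNFRSF10D, a decoy that binds TRAIL without a complete death domain and the neighbour of TNFRSF10A on the chromosome, rose to 22.8 ± 0.743 FPKM in shSRSF3 libraries, against 19.03 ± 0.306 FPKM in controls (log2 0.25, SE 0.05, limma adjusted p = 0.00786). Leaving out control library 2 ended that call (adjusted p = 0.0535). The decoy TNFRSF10C, which has no death domain, stood at 3.84 ± 0.402 FPKM in shSRSF3 libraries and 3.63 ± 0.046 FPKM in controls (adjusted p = 0.567). Among 13 adaptors and kinases of the receptor complexes, 12 were tested, 1 rose and 0 fell, with a median of 0.025. FADD, the adaptor that carries caspase 8 to the receptors, stood at 21.1 ± 2.54 FPKM in shSRSF3 libraries and 20.6 ± 0.945 FPKM in controls (adjusted p = 0.826). FAF1, a FAS-binding protein, rose by 0.19 (log2; adjusted p = 0.0456), and that call was lost when any library was left out (adjusted p from 0.0555 to 0.181), with quantile normalization (0.0633) and with no filter (0.0820).

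Among the other caspases, CASP4, a caspase of the response to bacterial lipopolysaccharide, rose to 5.82 ± 0.433 FPKM in shSRSF3 libraries, against 4.51 ± 0.230 FPKM in controls (log2 0.31, SE 0.06, adjusted p = 0.0120). CASP10, the relative of CASP8 that lies between CFLAR and CASP8 on the chromosome, did not pass (1.81 ± 0.0197 FPKM in shSRSF3 libraries and 2.14 ± 0.0587 FPKM in controls, adjusted p = 0.0835).

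Of 7 other IAP genes and antagonists, 4 were tested and 0 passed by limma, also 0 by voom and 0 at an unadjusted p under 0.05, with a median of -0.04. Survivin (BIRC5), a mitotic IAP, had the smallest p, with 35.8 ± 1.80 FPKM in shSRSF3 libraries and 38.8 ± 1.16 FPKM in controls (log2 -0.11, unadjusted p = 0.0557, adjusted p = 0.162). It passed with quantile normalization (log2 -0.20, adjusted p = 0.0129). The antagonist HTRA2, which like DIABLO is released from mitochondria, stood at 12.8 ± 0.841 FPKM in shSRSF3 libraries and 12.3 ± 0.124 FPKM in controls. Of 10 genes of the apoptosome and caspase substrates, all were tested, 1 rose and 1 fell, with a median of 0.06. APAF1, the scaffold that activates caspase 9, fell to 3.91 ± 0.411 FPKM in shSRSF3 libraries, against 4.99 ± 0.095 FPKM in controls (log2 -0.29, adjusted p = 0.0193). DFFA, the inhibitor of the nuclease that cuts DNA in apoptosis, rose to 39.4 ± 2.90 FPKM in shSRSF3 libraries, against 32.7 ± 1.47 FPKM in controls (log2 0.26, adjusted p = 0.0188). For APAF1 the call ended without control libraries 1, 2 and 3 (0.0637, 0.0664 and 0.0643) and with no filter (0.0654), and that of DFFA without shSRSF3 library 2 (0.0727), control libraries 2 and 3 (0.0785 and 0.0852) and with no filter (0.0593).

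Of 15 ubiquitin enzymes and their partners at the receptor complexes, all were tested, 3 rose and 2 fell, with a median of 0.05. TAB3, an adaptor of the kinase TAK1 that reads ubiquitin chains, fell to 1.38 ± 0.138 FPKM in shSRSF3 libraries, against 2.02 ± 0.118 FPKM in controls (log2 -0.34, adjusted p = 0.00924). SPATA2, which brings the deubiquitinase CYLD to the complexes, rose to 5.55 ± 0.249 FPKM in shSRSF3 libraries, against 4.42 ± 0.142 FPKM in controls (log2 0.27, adjusted p = 0.0114), a call lost without control library 2 (0.0606) or 3 (0.0528). OTULIN, which removes linear ubiquitin chains, fell by 0.20 (log2; adjusted p = 0.0345), a call lost without shSRSF3 libraries 1 and 2 (0.0521 and 0.109), control libraries 1, 2 and 3 (0.103, 0.149 and 0.0661) and with no filter (0.05995). The other calls of this list, chosen after their values were seen, were RNF31, the catalytic subunit of the linear ubiquitin ligase (log2 0.56, adjusted p = 0.0430), and TNIP1, which binds ubiquitin and restrains NF-kB (log2 0.24, adjusted p = 0.0448). RNF31 had 1.32, 1.53 and 0.507 FPKM in shSRSF3 libraries, against 0.270, 0.581 and 0.382 FPKM in controls, so shSRSF3 library 3 lay among the controls. Its call was lost without shSRSF3 libraries 1 and 2 (0.105 and 0.146), control libraries 1, 2 and 3 (0.127, 0.0576 and 0.1195), with no filter (0.147), quantile normalization (0.0506) and robust empirical Bayes (0.118). That of TNIP1 was lost without shSRSF3 libraries 1 and 2 (0.0830 and 0.0862), control libraries 1, 2 and 3 (0.0958, 0.0912 and 0.164), with no filter (0.1198), median scaling (0.0521) and quantile normalization (0.0830).

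**Figure D4:**
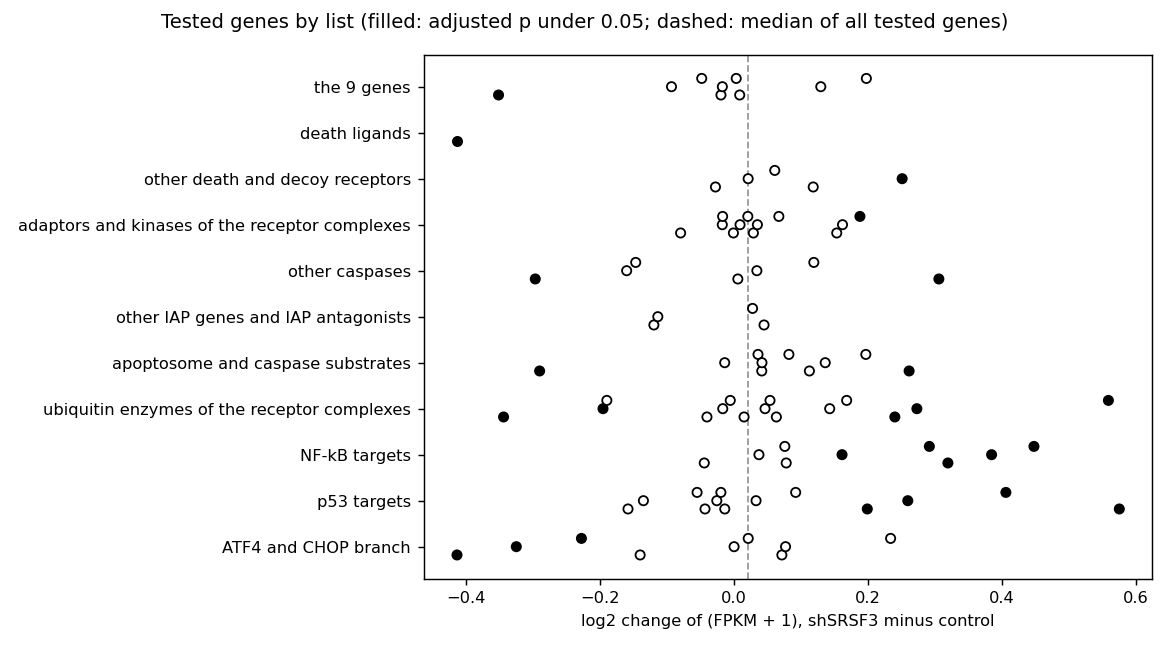
Log2 change of (FPKM + 1), shSRSF3 minus control, of every tested gene in each list (rows), with filled points where the adjusted p is under 0.05 and a dashed line at the median of all tested genes, 0.02. Filled are 5 of the 9 tested NF-kB targets, all right of the line, and among the 9 death receptor, caspase and IAP genes XIAP. Of all tested genes 16.8% were called. The lists were chosen with earlier results of these data known. The list labelled ATF4 and CHOP branch also holds ERN1, HSPA5 and XBP1.

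Transcription factors known to induce members of this pathway were followed through lists of their other targets. The list for ATF4 and CHOP also holds other ER stress genes. Of 16 NF-kB targets, 9 were tested, 5 rose and 0 fell (median log2 change 0.16, against 0.02 over all tested genes). Over all tested genes, 10.9% were called higher and 5.91% lower. RELB, a subunit of the noncanonical branch, rose to 12.4 ± 1.30 FPKM in shSRSF3 libraries, against 8.77 ± 0.498 FPKM in controls (log2 0.45, adjusted p = 0.00428). NFKB2, which encodes the p100 precursor of that branch, rose to 31.8 ± 2.43 FPKM in shSRSF3 libraries, against 24.1 ± 0.939 FPKM in controls (log2 0.38, adjusted p = 0.00357), and the adhesion receptor ICAM1 by 0.32 (log2; adjusted p = 0.0110). The other calls, chosen after their values were seen, were the inhibitor NFKBIE (log2 0.29, adjusted p = 0.0286) and NFKB1 (log2 0.16, adjusted p = 0.0453). The chemokine CXCL8 stood at 1.37 ± 0.310 FPKM in shSRSF3 libraries and 1.24 ± 0.216 FPKM in controls (adjusted p = 0.631), and 7 targets, among them IL6 and CCL20, were below the filter. The NFKBIE call was lost without shSRSF3 library 2 (0.107), control libraries 2 and 3 (0.0737 and 0.115) and with no filter (0.0939), and the NFKB1 call was lost without shSRSF3 libraries 1 and 2 (0.0807 and 0.125), control libraries 1, 2 and 3 (0.125, 0.159 and 0.119), with median scaling (0.0537), quantile normalization (0.128) and no filter (0.0537).

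BIRC3 and CFLAR are themselves known NF-kB targets, and their first annotated windows are shown beside that list. They lie at chr11:102317234-102317533 and chr2:201118466-201118765, both on the plus strand (RefSeq, GRCh38.p14). Capitals mark matches to the NF-kB consensus, searched on both strands.
BIRC3: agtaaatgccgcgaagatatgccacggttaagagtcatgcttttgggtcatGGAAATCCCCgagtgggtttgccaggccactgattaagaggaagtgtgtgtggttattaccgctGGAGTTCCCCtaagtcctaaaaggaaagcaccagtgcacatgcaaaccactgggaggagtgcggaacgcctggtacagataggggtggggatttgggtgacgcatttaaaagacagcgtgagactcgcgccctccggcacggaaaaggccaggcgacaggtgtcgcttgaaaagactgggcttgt
CFLAR: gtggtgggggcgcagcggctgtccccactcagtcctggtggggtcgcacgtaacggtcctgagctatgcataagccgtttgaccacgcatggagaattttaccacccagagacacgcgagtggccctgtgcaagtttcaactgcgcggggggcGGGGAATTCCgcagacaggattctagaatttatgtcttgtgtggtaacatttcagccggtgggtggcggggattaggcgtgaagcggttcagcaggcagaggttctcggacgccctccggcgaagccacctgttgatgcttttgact
The BIRC3 window holds 2 matches, which begin 199 and 135 bases before the annotated start and read on the minus strand. The CFLAR window holds 1, which begins 97 bases before its annotated start. CFLAR has 4 annotated windows, of which only the 1 shown holds a match. Of the 20 windows of the members in the table, 3 hold a match, the remaining one being in FAS, against 5.91% of all 35116 windows. Beside these matches, BIRC3 had a log2 change of 0.0035 and CFLAR of 0.13, and neither passed.

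Of 14 p53 targets, 13 were tested, 4 rose and 0 fell (median log2 change -0.01). Over all tested genes, 10.9% were called higher and 5.91% lower. FAS and TNFRSF10B, which p53 is known to induce, did not pass. GDF15, a secreted stress cytokine, rose to 845.9 ± 21.0 FPKM in shSRSF3 libraries, against 567.8 ± 29.0 FPKM in controls (log2 0.58, SE 0.07, adjusted p = 7.98e-04). The kinase PLK3 rose by 0.41 (log2; adjusted p = 0.00742) and the cell cycle inhibitor CDKN1A (p21) by 0.20 (adjusted p = 0.0261). The fourth call, chosen after its value was seen, was the antiproliferative gene BTG2 (log2 0.26, adjusted p = 0.0283). MDM2 stood at 5.60 ± 0.465 FPKM in shSRSF3 libraries and 5.70 ± 0.097 FPKM in controls (adjusted p = 0.807). The CDKN1A call was lost with quantile normalization (log2 0.09, adjusted p = 0.182), without shSRSF3 library 2 (0.0995) and without control libraries 1, 2 and 3 (0.0701, 0.108 and 0.1195), and the BTG2 call was lost without shSRSF3 library 2 (0.0940), control libraries 2 and 3 (0.0704 and 0.120) and with no filter (0.0816).

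The list named for the ATF4 and CHOP branch of the stress response held 9 genes. Among them were ERN1, HSPA5 and XBP1 of the wider ER stress response. All 9 were tested, with 0 called higher and 3 called lower (median log2 change 0.00030), against 10.9% called higher and 5.91% lower over all tested genes. CHAC1, a glutathione-degrading ATF4 target, fell to 28.6 ± 2.38 FPKM in shSRSF3 libraries, against 38.3 ± 1.93 FPKM in controls (log2 -0.41, adjusted p = 0.00352), ATF4 itself fell by 0.32 and the ER stress factor XBP1 by 0.23 (log2; adjusted p = 0.0104 and 0.0129). Neither ATF4 (0.0578 and 0.0508) nor XBP1 (0.0766 and 0.0562) passed without control library 2 or without control library 3. Close to the threshold, and chosen after their values were seen, were PPP1R15A and TRIB3. PPP1R15A was higher in shSRSF3 libraries (log2 0.23, limma adjusted p = 0.0502) and passed only by voom on fragments among these 2 tests (adjusted p = 0.0327). TRIB3 was lower (log2 -0.14, limma adjusted p = 0.0590) and did not pass by voom (0.0601). CHOP (DDIT3), a known inducer of TNFRSF10B, stood at 19.5 ± 2.33 FPKM in shSRSF3 libraries and 18.5 ± 0.910 FPKM in controls (adjusted p = 0.542).

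Among all tested genes outside the 9, those whose log2(FPKM + 1) followed XIAP most closely over the 6 libraries were GHITM, MTFR2 and TUBE1, with Pearson r of 0.998, 0.998 and 0.997. These are the highest of 10814 rows, and the 6 points share their libraries and the difference between groups, so the values only describe these libraries. MTFR2 fell to 4.70 ± 0.630 FPKM in shSRSF3 libraries, against 6.14 ± 0.444 FPKM in controls (log2 -0.33, adjusted p = 0.0249), a call lost without control libraries 1, 2 and 3 (0.0551, 0.0572 and 0.106) and with no filter (0.0903). GHITM, with 182.1 ± 4.77 FPKM in shSRSF3 libraries and 193.9 ± 2.58 FPKM in controls, did not pass (adjusted p = 0.243), except with quantile normalization (log2 -0.20, adjusted p = 0.0327). TUBE1, with 1.28 ± 0.158 FPKM in shSRSF3 libraries and 1.61 ± 0.112 FPKM in controls, did not pass (adjusted p = 0.0867).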

How the data were processed

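Expression was measured by RNA sequencing in 3 shSRSF3 and 3 control libraries. The authors deposited FPKM values per gene symbol, 1 column per library, per the file headers. Per the submitters' processing notes the tools were HISAT2, StringTie, Cuffdiff and edgeR, whose roles and versions are not stated, and neither is the genome build. Library preparation is described in more than 1 way: the labels' protocols give a poly-T selection and, for lncRNA, an rRNA-depleted stranded preparation, and do not say which gave these values. The members, lists, tests and alternatives were chosen with earlier results of these data known. Genes named from a list were all its calls where there were at most 3, otherwise the 3 with the smallest p, or the 1 with the smallest p where none passed. FASLG and TNFSF10 were named whatever their p, and the 3 rows most like XIAP by Pearson r. Others are named for their role or level, and these were chosen after their values were seen.

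The mRNA table was tested with limma 3.58.1 in R 4.3.3 (lmFit, eBayes with a trend, two-sided) on log2(FPKM + 1), keeping rows whose mean reached 0.5 FPKM, and checked on simulated data. Ratios and single values were compared by exact two-sided permutation. FPKM steps gave whole fragments, within 0.003, for 14770 of 14803 rows above 0 in at least 3 libraries (99.8%). All rows of the 9 genes were among them. Library totals, gene lengths and fragment numbers were taken from these steps (Python 3.11.15, numpy 2.4.6, pandas 2.3.3). The fragment numbers hold the variation between libraries as well as counting error. Promoter windows were matched by symbol to RefSeq sequences, with 7 of the 9 genes matched and 0 windows for TNFRSF10A and TNFRSF10B. A result for 1 gene of the caspase list is not reported here.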

Additional observations from a re-analysis of the deposited data

How the results depend on the processing

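The alternatives were a pseudocount of 0.1, no filter, a mean of at least 5 FPKM, median scaling, quantile normalization, robust empirical Bayes, limma voom on recovered fragments, a replicate block and each library left out. Among the 9 genes, the count of higher calls, 0 as reported, was 1 (TNFRSF10A) at a mean of at least 5 FPKM and ran from 0 to 1 with a library left out. The count of lower calls, 1 as reported (XIAP), was 0 with no filter and ran from 0 to 1 with a library left out. For the other pathway genes no filter gave 9 higher and 5 lower, and quantile normalization gave 11 higher and 11 lower. Leaving out a library gave 6 to 19 higher and 3 to 8 lower of these genes. Over all tested genes 1819 were called as reported, 960 with no filter, which tests 16315 rows, and 643 to 2742 with a library left out. XIAP stayed lower in all 14 alternatives and lost its call in 3 of them. Values close to 0 changed sign. With a library left out, the log2 changes ran from -0.0508 to 0.0486 for FAS (negative without shSRSF3 replicate 3 or control replicate 1), from -0.0495 to 0.0076 for TNFRSF10B (positive without shSRSF3 replicate 3), from -0.0781 to 0.0261 for CASP8 (positive without shSRSF3 replicate 2 or control replicate 2), from -0.0524 to 0.0470 for BIRC3 (negative without shSRSF3 replicate 3 or control replicate 1) and from -0.2346 to 0.0050 for the ratio of BIRC2 to BIRC3 (positive without shSRSF3 replicate 3). The cause of these differences was not tested. The labels do not say that same-numbered libraries are pairs, so the numbers are not read as pairs. Deviations from the group mean correlated at 0.08, 0.04 and 0.28 between same-numbered libraries. With 3 libraries per group these values cannot decide whether the libraries were paired. A limma fit with the replicate block called 2323 genes, against 1819 as reported, and XIAP had an adjusted p = 0.00799 in it. Libraries 1 and 3 of shSRSF3 correlated best with the control library of their own number. Library 2 of shSRSF3 correlated better with control library 1 (0.15) than with its own number. The remaining correlations between unlike numbers ran from -0.21 to 0.03. The fewest fragments were behind BIRC3 (124 to 182 per library) and DIABLO (115 to 151), whose 95% intervals span -0.16 to 0.17 and -0.20 to 0.11.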
